A study of Mus musculus with 8 samples.

Results

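The 10 imprinted growth-control genes H19, Igf2, Igf2r, Meg3, Rian, Dlk1, Ndn, Peg3, Plagl1 and Grb10 were followed in mouse blood stem and progenitor cells that lacked or carried Asxl2. They were chosen by name, as imprinted genes tied to stem cell quiescence, and not by a rule on their measured values. Earlier results of these data were known when they were chosen. All 10 were found among the 47311 genes of the deposited tables, and 9 of them passed the filter on low counts that left 25543 genes for testing. The cells were LSK cells, the marrow fraction without lineage markers and with Sca1 and Kit on the surface, which holds stem cells and multipotent progenitors together. There were 4 groups of 2 mice: old KO and young KO mice (Asxl2 knockout), and old WT and young WT mice. Old mice were over 1 year of age and young mice 8 to 12 weeks. The labels name 2 batches and put 1 mouse of each group in each, and each KO mouse was paired by the labels with a WT littermate of its own age and batch, which made 4 litters. The knockout allele, the cells in which it was deleted, the strain and the sex were not given in the sources used here.

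An imprinted gene is read from the copy of 1 parent, because DNA methylation laid down in egg or sperm marks a control region nearby. Many of these genes act on growth. Igf2 is a growth factor, and Igf2r is the receptor that takes it up and sends it to the lysosome for breakdown. Grb10 is an adaptor that dampens signalling of the insulin and insulin-like growth factor receptors. H19 and Igf2 share a control region and enhancers, and H19 is a noncoding RNA. Dlk1, a membrane protein related to Notch ligands, sits in 1 imprinted cluster with the noncoding RNAs Meg3 and Rian. Dlk1 and Igf2 are read from the paternal copy, and H19, Meg3, Rian and Igf2r from the maternal copy. Ndn encodes necdin, which restrains cell division, and Peg3 and Plagl1 encode zinc finger proteins. In mouse blood stem cells, the maternally read H19 and the Dlk1-Meg3 cluster are known for holding stem cells in quiescence. The files held no allele-specific counts, so every level is the sum of both parental copies.

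The libraries held 45737972 to 80388500 estimated counts, and 26237 to 36175 genes were detected in each. Asxl2 measured 5.34, 4.99, 4.64 and 5.63 TPM (a level scaled for transcript length and library depth) in KO libraries, against 29.96, 23.0, 30.8 and 23.7 TPM in WT libraries, a log2 change of -2.10 (SE 0.17, adjusted p = 0.000408, edgeR's quasi-likelihood test with Benjamini-Hochberg adjustment). All 12 LSK markers were detected in each library, with a summed level of 1701 to 2392 TPM in KO libraries and 2328 to 3771 TPM in WT libraries. The share of counts in noncoding transcript classes (unconfirmed loci, antisense and long intergenic RNAs) was 0.827% to 1.92% in KO and 0.766% to 1.28% in WT libraries, and 1.12% to 1.92% in old and 0.766% to 1.12% in young libraries. Both libraries of 1 litter, old KO replicate 1 and old WT replicate 1, had Xist at 3.33 and 3.61 TPM, against at most 0.0612 TPM in the other KO and WT libraries, so that litter stands apart from the rest. Both libraries with Xist are from old mice, so in every old-over-young value age and the presence of Xist, an RNA of female cells, are partly confounded.

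The promoters of the genes that changed between genotypes are shown because imprinted expression depends on CpG methylation and no methylation was measured here. They are the 250 bases before the RefSeq start site in GRCm38.p6, on the strand of the gene, with each CpG in capitals. None of the 4 windows overlapped an annotated exon. The first is the Igf2r window at chr17:12769707-12769956 on the minus strand, and the next is the outer Grb10 start at chr11:12037421-12037670 on the minus strand. The inner Grb10 start, at chr11:12027972-12028221 on the minus strand, and the Meg3 start, at chr12:109540746-109540995 on the plus strand, follow.
Igf2r promoter: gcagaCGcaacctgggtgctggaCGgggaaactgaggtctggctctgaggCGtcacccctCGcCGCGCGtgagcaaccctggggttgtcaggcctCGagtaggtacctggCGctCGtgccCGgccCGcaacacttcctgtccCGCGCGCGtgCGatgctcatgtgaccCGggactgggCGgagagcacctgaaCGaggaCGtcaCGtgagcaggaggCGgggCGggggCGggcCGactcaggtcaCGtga
Grb10 outer promoter: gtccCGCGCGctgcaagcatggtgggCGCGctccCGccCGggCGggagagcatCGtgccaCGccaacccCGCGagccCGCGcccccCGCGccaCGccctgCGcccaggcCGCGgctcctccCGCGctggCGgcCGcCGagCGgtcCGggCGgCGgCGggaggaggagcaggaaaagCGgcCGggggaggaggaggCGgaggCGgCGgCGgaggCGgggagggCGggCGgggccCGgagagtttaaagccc
Grb10 inner promoter: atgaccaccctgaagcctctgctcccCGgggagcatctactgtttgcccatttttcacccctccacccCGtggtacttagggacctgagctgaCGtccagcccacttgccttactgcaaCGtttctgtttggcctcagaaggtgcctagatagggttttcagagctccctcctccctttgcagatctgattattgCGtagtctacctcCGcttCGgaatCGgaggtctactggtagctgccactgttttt
Meg3 promoter: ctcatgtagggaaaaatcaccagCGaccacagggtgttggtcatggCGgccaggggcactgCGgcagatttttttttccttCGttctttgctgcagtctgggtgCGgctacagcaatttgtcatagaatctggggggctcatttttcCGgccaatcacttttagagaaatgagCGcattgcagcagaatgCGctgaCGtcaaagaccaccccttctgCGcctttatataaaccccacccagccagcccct
These windows held 27 CpG for Igf2r, 40 for the outer and 8 for the inner Grb10 start, and 10 for Meg3. Of 32851 promoters in the table, 8.6% had at least as many CpG as Igf2r, 1.3% as many as the outer Grb10 start, 43.0% as many as the inner one and 37.8% as many as Meg3. Over the 14 promoters listed for 9 of the 10 genes the median was 8 CpG, against 6 over all promoters. The letters GGGGCCCC, a motif bound by Plagl1 that reads the same on both strands, were found in 1 of the 14 windows, that of Peg3, and in 0.89% of all promoters.

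A pair of short transcripts is shown as well, because they carried much of the TPM of their genes, though on few counts. Igf2r-202 had at most 2.45 estimated counts in any library, and Rian-208 had 4.69 to 34.3. Igf2r-202 (chr17:12748653-12750800, minus strand) is a noncoding transcript of 245 bases, printed with the 131 bases it shares with the full-length Igf2r-201 in capitals. It lies wholly inside Airn (chr17:12741311-12860136, plus strand), the antisense RNA that silences paternal Igf2r. Rian-208 (chr12:109649171-109650351, plus strand) is 352 bases long, its first 200 bases are printed, and 5.6% of its 31-base words also occurred in transcripts of other genes. Both sequences were read from the GENCODE vM21 transcripts.
Igf2r-202: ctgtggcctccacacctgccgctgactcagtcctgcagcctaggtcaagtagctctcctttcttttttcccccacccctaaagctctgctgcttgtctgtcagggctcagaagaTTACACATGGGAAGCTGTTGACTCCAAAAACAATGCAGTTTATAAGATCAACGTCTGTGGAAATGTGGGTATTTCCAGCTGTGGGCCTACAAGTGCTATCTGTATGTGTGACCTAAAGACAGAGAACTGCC
Rian-208: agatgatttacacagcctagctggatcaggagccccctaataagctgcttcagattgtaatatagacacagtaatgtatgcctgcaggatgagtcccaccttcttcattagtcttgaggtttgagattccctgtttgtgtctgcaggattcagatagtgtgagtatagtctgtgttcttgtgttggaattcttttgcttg

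Over all 8 libraries Ndn was the highest of the 10 genes, with a mean of 14.3 TPM, followed by Grb10 at 7.93 and Rian at 4.72 TPM. Dlk1 at 2.91, Meg3 at 2.67 and Igf2r at 2.62 TPM came next and were closer to each other than the spread of any of them over libraries. Igf2 averaged 1.45 TPM, and Plagl1 at 0.242, Peg3 at 0.146 and H19 at 0.0949 TPM were lowest. The plot of levels by library shows the order of the groups for each gene.

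**Figure D1:**
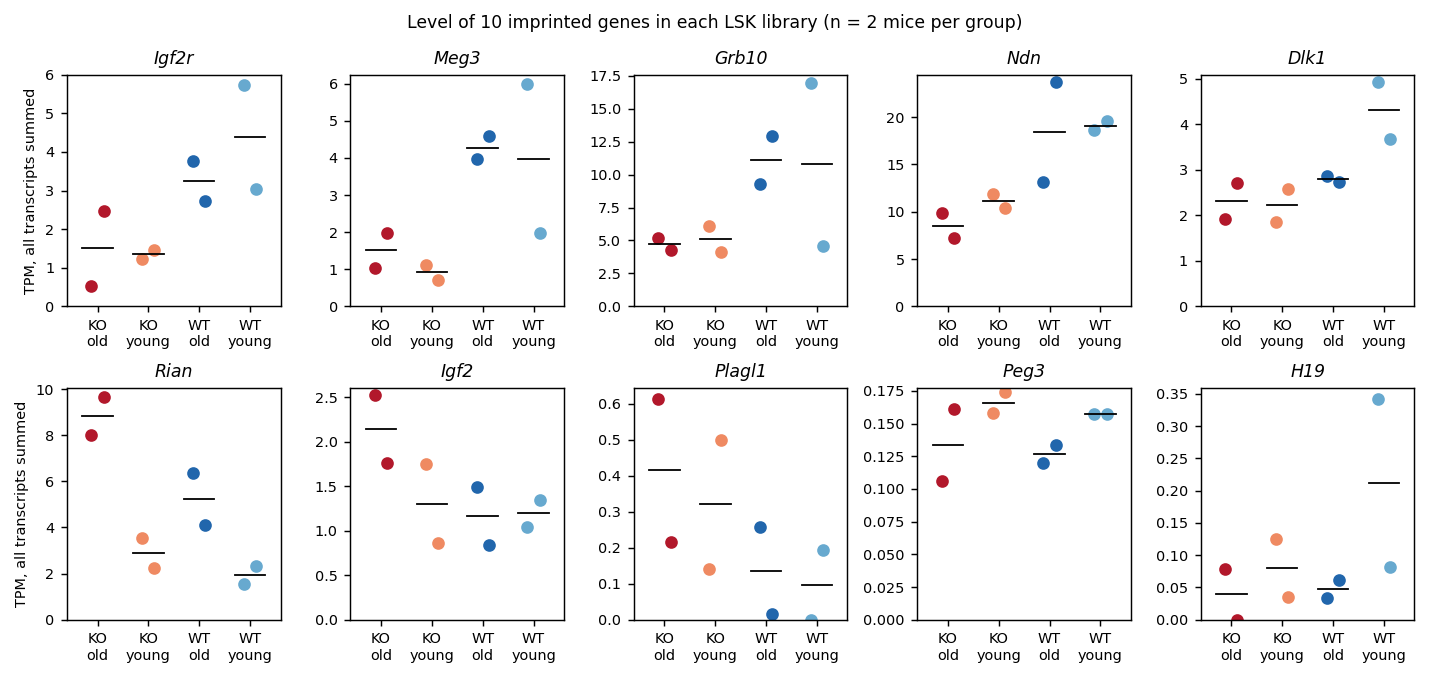
TPM of each of the 10 imprinted genes (y axis, all transcripts summed, scale set per gene) in old KO, young KO, old WT and young WT mice (x axis). Points are single libraries and the black line is the mean of 2. Igf2r, Ndn and Dlk1 have all KO points below all WT points, Rian has all old points above all young points, and the other 6 genes overlap both ways.

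Igf2r, Meg3 and Grb10 were lower in KO than in WT cells over both ages. They were 3 of the 9 genes tested, and none was called higher. Over all genes tested 9.98% were called in this comparison, 6.78% lower and 3.19% higher. The median log2 change was -0.29 over the 9 genes and 0.10 over all genes tested. The KO libraries lay wholly below the WT libraries for 3 of the 9 (Igf2r, Ndn and Dlk1), which 8.08% of all genes tested did. DESeq2 called 5 of the 9 (1 had no adjusted p) and 27.5% of all genes with an adjusted p, and 5 of the 9 had an unadjusted p under 0.05 by edgeR, as 29.1% of all genes did. Fewer cells of a type that reads a gene and less RNA of it per cell cannot be told apart in these bulk libraries.

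Igf2r (ENSMUSG00000023830, chr17:12682406-12769664) measured 0.534 and 2.48 TPM in old KO, 1.23 and 1.46 TPM in young KO, 3.77 and 2.74 TPM in old WT and 5.74 and 3.05 TPM in young WT libraries. The highest KO library, old KO replicate 2, lay just under the lowest WT library, old WT replicate 2. The mean was 1.43 ± 0.804 TPM in KO and 3.82 ± 1.35 TPM in WT cells (SD, n = 4 each). In the test across all genes the log2 change of Igf2r was -1.25 (SE 0.24, adjusted p = 0.0181, edgeR), and it was -1.25 with litter as a block (adjusted p = 0.0418). Within the batches, each with 1 mouse per group, the change was -1.09 in the first and -1.49 in the second. The call was lost without old KO replicate 2 (adjusted p = 0.0512), old WT replicate 1 (0.0514), old WT replicate 2 (0.0608) or young WT replicate 1 (0.059), and without the litter that stands apart (0.121).

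The Igf2r level came from a pair of transcripts of very unequal length. The coding Igf2r-201, 8887 bases long, measured 0.534 and 0.969 TPM in old KO, 1.23 and 1.46 in young KO, 1.99 and 1.73 in old WT and 5.68 and 2.27 TPM in young WT libraries. All KO values of this transcript were again below all WT values. The short Igf2r-202 measured 0 and 1.45 TPM in old KO, 0 in both young KO, 1.66 and 1.01 in old WT and 0 and 0.731 TPM in young WT libraries. Its counts were few, and with it left out (also added after the values were seen) the log2 change of Igf2r was -1.25 (adjusted p = 0.0181). Airn, across it, measured 5.76 ± 2.59 TPM in KO and 6.46 ± 2.37 TPM in WT cells, with a log2 change of 0.03 (adjusted p = 0.947). The library kit does not mark strand, so reads of Airn and of the Igf2r intron it crosses cannot be told apart there.

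Grb10 (ENSMUSG00000020176, chr11:11930508-12038683) measured 5.18 and 4.25 TPM in old KO, 6.13 and 4.16 TPM in young KO, 9.28 and 12.9 TPM in old WT and 16.9 and 4.61 TPM in young WT libraries. Young WT replicate 2 lay among the KO libraries, and the other 3 WT libraries lay above them. The mean was 4.93 ± 0.922 TPM in KO and 10.9 ± 5.25 TPM in WT cells (SD, n = 4 each). Its log2 change of -0.91 passed (SE 0.26, adjusted p = 0.0481, edgeR), but not with litter as a block (-0.89, adjusted p = 0.0766). Grb10 measured -0.36 within the first batch and -1.50 within the second, with 1 mouse per group in each. The call was lost in 6 of the 8 fits that left out 1 library, with adjusted p from 0.069 to 0.189, and held without young KO replicate 2 (0.0411) or young WT replicate 2 (0.00534).

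The coding Grb10-201, which starts at the outer promoter, measured 1.91 and 2.17 TPM in old KO, 3.19 and 3.28 in young KO, 3.91 and 5.83 in old WT and 13.4 and 3.28 TPM in young WT libraries. The young WT replicates differed most in this transcript. Grb10-203, which starts at the inner promoter, measured 0.527 and 0.898 TPM in old KO, 1.36 and 0.422 in young KO, 1.29 and 1.91 in old WT and 1.20 and 0.642 TPM in young WT libraries. The KO and WT libraries overlapped in Grb10-203, with means of 0.801 ± 0.422 TPM in KO and 1.26 ± 0.521 TPM in WT cells (SD, n = 4 each). Transcripts were not tested.

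Meg3 (ENSMUSG00000021268, chr12:109541001-109571726), the noncoding RNA whose promoter is shown above, measured 1.03 and 1.99 TPM in old KO, 1.13 and 0.712 TPM in young KO, 3.97 and 4.59 TPM in old WT and 5.98 and 1.97 TPM in young WT libraries. The groups met at old KO replicate 2 and young WT replicate 2, which were almost equal, and the other 3 WT libraries lay above all KO libraries. The mean was 1.22 ± 0.545 TPM in KO and 4.13 ± 1.67 TPM in WT cells (SD, n = 4 each). The log2 change of Meg3 was -1.32 (SE 0.30, adjusted p = 0.0275, edgeR) and -1.30 with litter as a block (adjusted p = 0.0479). Within the batches, each with 1 mouse per group, it measured -1.23 in the first and -1.46 in the second. Its call was lost in 6 of the 8 fits without 1 library, with adjusted p from 0.0503 to 0.0925, and held without young KO replicate 2 (0.0343) or young WT replicate 2 (0.0175). Without the litter that stands apart the log2 change of Meg3 was -1.42 (adjusted p = 0.118).

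The transcripts Meg3-205 and Meg3-207 held most of this level. Meg3-205 measured 0.399 and 1.36 TPM in old KO, 0.84 and 0.509 in young KO, 1.83 and 2.98 in old WT and 3.55 and 1.51 TPM in young WT libraries, so all KO values lay below all WT values. Of their 31-base words 48.2% and 58.0% also occurred in other genes, chiefly Gm27000 on chromosome X. Gm27000 itself was at 0.139 and 0.189 TPM in old KO, 0 in both young KO, 0 and 0.243 in old WT and 0 and 0.175 TPM in young WT libraries, and the split of shared reads between these genes is uncertain. Gm26906, which overlaps the end of Meg3 on the other strand, was at 0 to 0.0456 TPM.

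The other genes of the Meg3 cluster did not pass. Dlk1 (ENSMUSG00000040856, chr12:109452823-109463336) measured 1.91 and 2.72 TPM in old KO, 1.85 and 2.59 TPM in young KO, 2.86 and 2.72 TPM in old WT and 4.94 and 3.68 TPM in young WT libraries. The KO libraries lay below the WT libraries by the smallest of gaps, between the second replicates of the old mice. The coding Dlk1-205 held 65.0% to 90.9% of its TPM. Its log2 change was -0.29 (SE 0.30, adjusted p = 0.546, edgeR). Rian (ENSMUSG00000097451, chr12:109603940-109661716) averaged 5.86 ± 3.54 TPM in KO and 3.59 ± 2.13 TPM in WT cells (SD, n = 4 each), and its groups overlapped. Its log2 change of 1.13 (SE 0.41, adjusted p = 0.0961) did not pass. Meg3 and Rian are thus given opposite signs by the fit, a difference between genes that was not tested.

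Ndn (ENSMUSG00000033585, chr7:62346569-62350262) has a single transcript and measured 9.83 and 7.26 TPM in old KO, 11.9 and 10.4 TPM in young KO, 13.2 and 23.7 TPM in old WT and 18.6 and 19.6 TPM in young WT libraries. The KO libraries lay wholly below the WT libraries, with means of 9.85 ± 1.94 TPM in KO and 18.8 ± 4.32 TPM in WT cells (SD, n = 4 each). Its log2 change of -0.80 (SE 0.24, adjusted p = 0.0537, edgeR) just missed the threshold. DESeq2 called it (adjusted p = 0.00359), and with litter as a block the adjusted p was 0.0943. Ndn was the deepest of these genes, with 914 to 2335 estimated counts in KO and 2347 to 3743 in WT libraries.

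Igf2, the ligand that Igf2r clears, did not differ detectably. Igf2 (ENSMUSG00000048583, chr7:142650766-142666816) measured 2.52 and 1.76 TPM in old KO, 1.75 and 0.864 TPM in young KO, 1.50 and 0.842 TPM in old WT and 1.05 and 1.35 TPM in young WT libraries. The groups overlapped, and the log2 change was 0.19 (SE 0.41, adjusted p = 0.783, edgeR). Its sign turned in 5 of the alternative fits. The coding Igf2-203 measured 0.875 and 0.781 TPM in old KO, 0.887 and 0.632 in young KO, 0.578 in both old WT and 0.865 and 1.00 TPM in young WT libraries. The noncoding Igf2-208, at 1.47 and 0.898 TPM in old KO against 0.717 and 0.0193 TPM in old WT libraries, was the transcript that differed most between libraries. Of the 31-base words of Igf2-203, 93.5% also occurred in Gm49394, an annotated gene that was not among the genes matched here.

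H19 (ENSMUSG00000000031, chr7:142575529-142578143) was the 1 gene that failed the filter on low counts. It had 3 and 0 estimated counts in old KO, 1 and 3 in young KO, 3 and 4 in old WT and 16 and 5 in young WT libraries. The count of 0 in old KO replicate 2 allows up to 3 counts, by counting error alone. Young WT replicate 1 held the highest level, 0.342 TPM. H19 was left out of the full fit at these counts, so no test between groups is given for it. Plagl1 (ENSMUSG00000019817, chr10:13060504-13131694) was nearly as sparse, with 5.1 to 29.0 estimated counts in KO and 0 to 14.2 in WT libraries. It measured 0.368 ± 0.225 TPM in KO and 0.117 ± 0.128 TPM in WT cells (SD, n = 4 each), a log2 change of 1.68 (SE 0.87, adjusted p = 0.225, edgeR). Peg3 (ENSMUSG00000002265, chr7:6703892-6730431) measured 0.15 ± 0.0301 TPM in KO and 0.142 ± 0.0185 TPM in WT cells, with a log2 change of 0.40 (SE 0.39, adjusted p = 0.526).

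**Figure D2:**
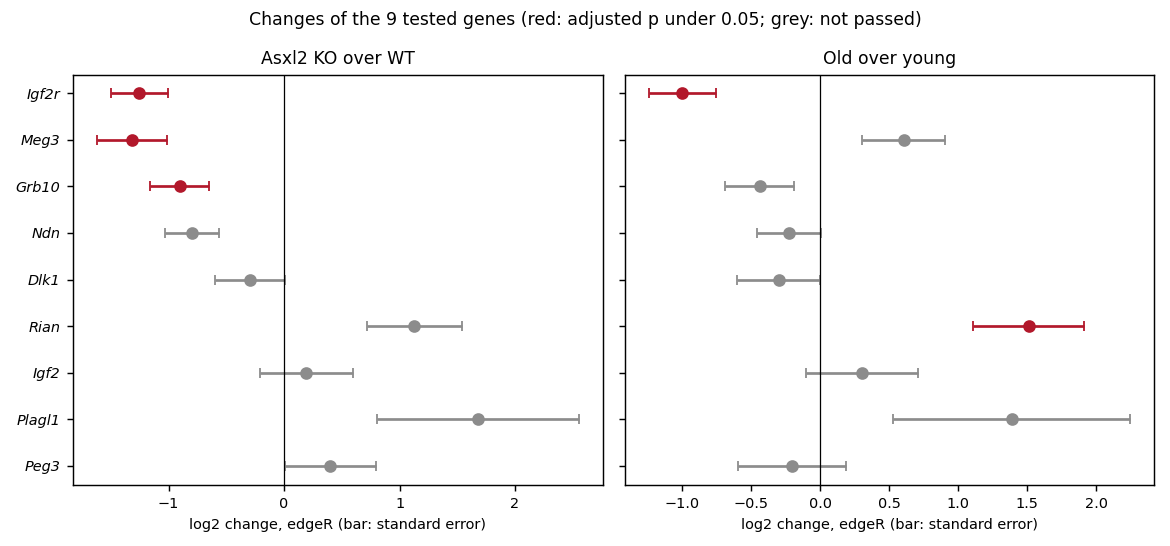
Log2 change of the 9 tested genes with its standard error (x axis) for KO over WT (left) and old over young (right). Red points passed an adjusted p of 0.05 in edgeR's quasi-likelihood test and grey points did not. Igf2r at -1.25, Meg3 at -1.32 and Grb10 at -0.91 are red on the left, and Rian at 1.51 and Igf2r, on the negative side, are red on the right.

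Between ages, over both genotypes, Rian was higher and Igf2r lower in old than in young cells, 2 of the 9 genes tested. Over all genes tested 13.9% were called in this comparison, 4.34% higher and 9.61% lower. The median log2 change was -0.21 over the 9 genes and 0.15 over all genes tested. The old libraries lay wholly above the young libraries for 1 of the 9, Rian, as they did for 4.73% of all genes tested. Litter is nested in age, so it cannot be a block here.

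Rian measured 8.02 and 9.65 TPM in old KO, 3.54 and 2.22 TPM in young KO, 6.37 and 4.10 TPM in old WT and 1.57 and 2.33 TPM in young WT libraries. Every old library lay above every young library, and in old mice both KO libraries also lay above both WT libraries, while in young mice the genotypes overlapped. The mean was 7.03 ± 2.37 TPM in old and 2.41 ± 0.823 TPM in young cells (SD, n = 4 each). Rian rose by a log2 change of 1.51 (SE 0.40, adjusted p = 0.0362, edgeR), and by 1.50 and 1.68 within the batches, each with 1 mouse per group. The call was lost without old KO replicate 1 (adjusted p = 0.0781), old KO replicate 2 (0.129), young KO replicate 2 (0.132), old WT replicate 1 (0.0709) or young WT replicate 1 (0.0903), and without the litter that stands apart (0.411). Rian-208, shown above, measured 5.32 and 3.07 TPM in old KO, 1.85 and 1.70 in young KO, 3.36 and 2.65 in old WT and 1.31 and 0.976 TPM in young WT libraries, and kept the old libraries above the young ones. These levels rest on 4.69 to 34.3 estimated counts per library.

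The noncoding share of the libraries moved with Rian. That share was 1.92% and 1.70% in old KO, 1.12% and 0.827% in young KO, 1.28% and 1.12% in old WT and 0.808% and 0.766% in young WT libraries. Across the 8 libraries, which share this ranking with age, Pearson's r between log2(TPM + 1) of Rian and the log2 share was 0.96. The same r was 0.76 for Igf2, 0.40 for Plagl1 and between -0.62 and -0.20 for the other 7 genes. With the share as a covariate, an alternative added after the values were seen, the old-over-young change of Rian was 0.07, its KO-over-WT change 0.24, and no gene of the 25543 was called in either comparison, not even Asxl2 (-2.21, adjusted p = 0.262). The part of the noncoding share in the Rian result was not tested.

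**Figure D3:**
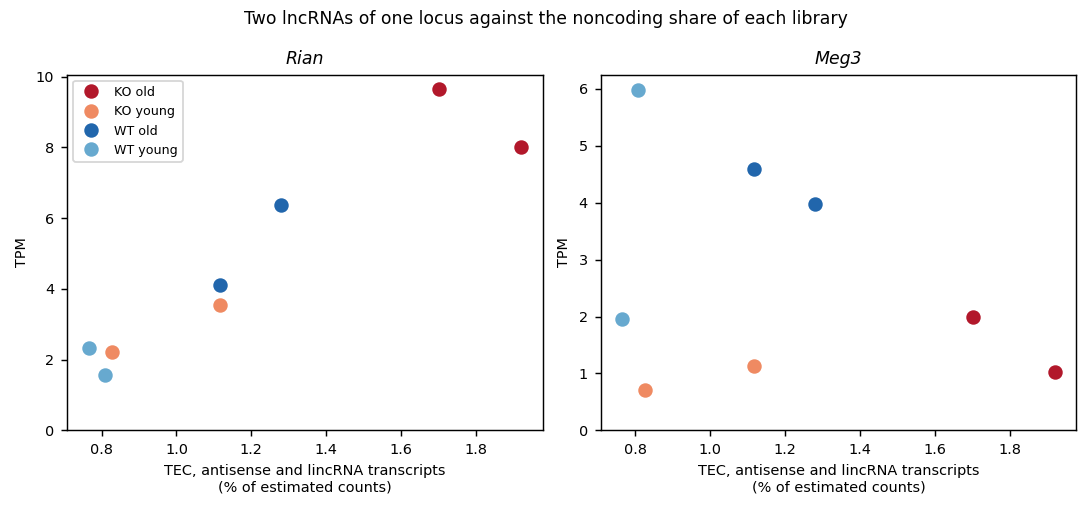
TPM of Rian (left) and Meg3 (right) against the percentage of estimated counts in unconfirmed, antisense and long intergenic noncoding transcripts, a class that holds both genes (x axis), with 1 point per library coloured by group. Rian climbs with the share to 9.65 TPM in old KO replicate 2, while the KO libraries stay at or below 1.99 TPM of Meg3 at every share.

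Igf2r was the other gene that differed with age, and fell by 1.00 in log2 units (SE 0.24, adjusted p = 0.0295, edgeR) in estimated counts. It measured 2.38 ± 1.35 TPM in old and 2.87 ± 2.08 TPM in young cells (SD, n = 4 each), and the libraries overlapped. On the log2(TPM + 1) scale the difference was only -0.16 (adjusted p = 0.702, limma). In TPM the 245-base Igf2r-202 added between 1.01 and 1.66 to 3 of the 4 old libraries, on only 1.34 to 2.45 estimated counts. The coding Igf2r-201 measured 0.534 and 0.969 TPM in old KO against 1.23 and 1.46 TPM in young KO libraries, and 1.99 and 1.73 TPM in old WT against 5.68 and 2.27 TPM in young WT libraries. Within each genotype, old libraries thus lay below young ones in this transcript. Within the batches, each with 1 mouse per group, the gene changed by -0.93 and -0.99. The call was lost in 6 of the 8 fits without 1 library (adjusted p from 0.053 to 0.147). It held without young KO replicate 1 (0.022) or young WT replicate 2 (0.00894), and was lost without the litter that stands apart (0.411).

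**Figure D4:**
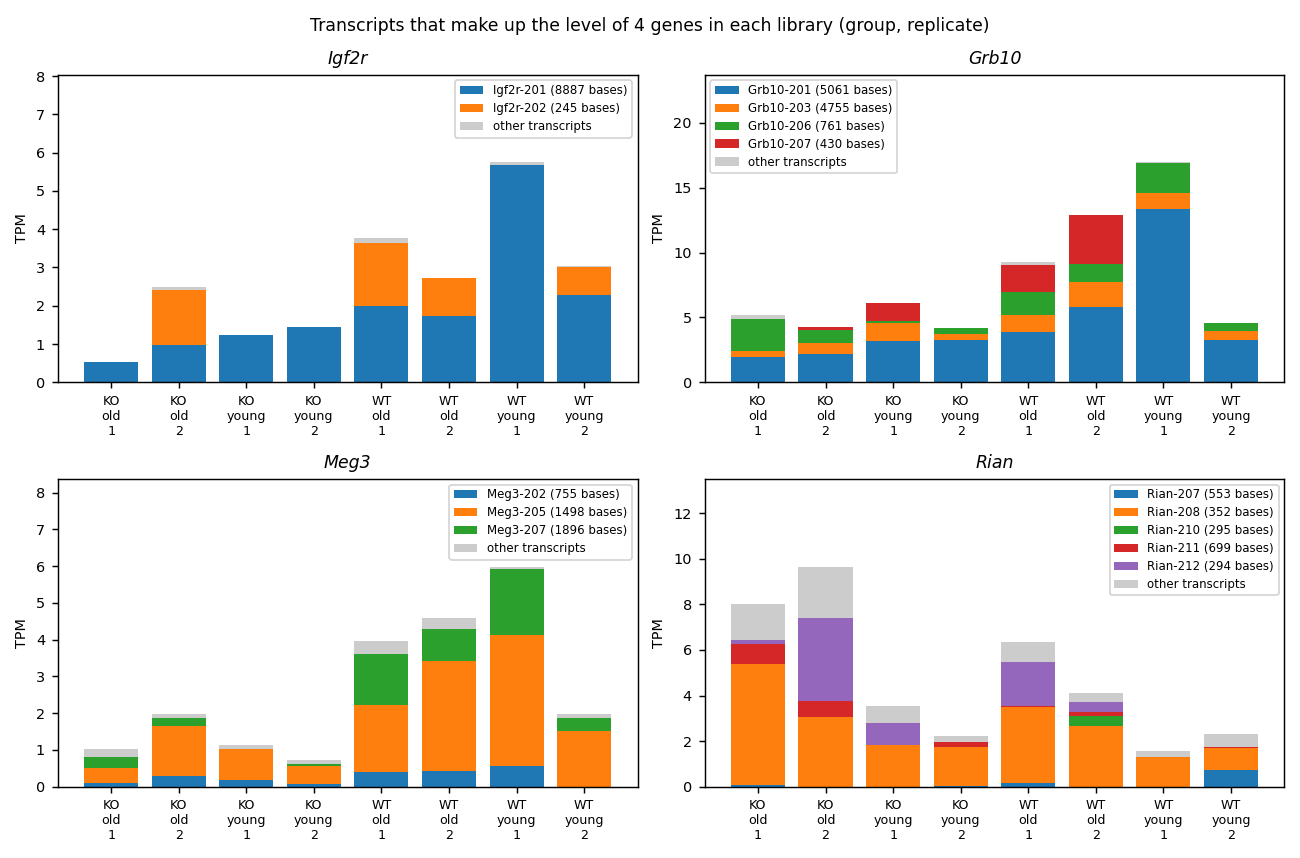
TPM (y axis) of Igf2r, Grb10, Meg3 and Rian in each library (x axis, group and replicate), stacked by transcript with its length in the legend. The 245-base Igf2r-202 appears in 4 libraries of old or WT mice, Grb10-201 reaches 13.4 TPM in young WT replicate 1, and Rian-208 is the widest block of most Rian bars.

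The other 7 genes tested did not pass between ages. Meg3 measured 2.90 ± 1.66 TPM in old and 2.45 ± 2.42 TPM in young cells (SD, n = 4 each), with a log2 change of 0.61 (SE 0.30, adjusted p = 0.161, edgeR). Grb10, at 7.90 ± 3.98 TPM in old and 7.96 ± 6.05 TPM in young cells, changed by -0.44 (SE 0.25, adjusted p = 0.213). Dlk1 changed by -0.30 (SE 0.30), Ndn by -0.23 (SE 0.23), Igf2 by 0.30 (SE 0.41), Peg3 by -0.21 (SE 0.39) and Plagl1 by 1.39 (SE 0.86).

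Within 1 age or 1 genotype none of the 9 genes passed. In old mice the KO-over-WT log2 change was -1.16 for Igf2r (SE 0.36, adjusted p = 0.11), -0.87 for Meg3 (SE 0.41), -0.92 for Grb10 (SE 0.38), -0.90 for Ndn (SE 0.35) and 1.71 for Rian (SE 0.52, adjusted p = 0.105). In young mice it was -1.34 for Igf2r (SE 0.37, adjusted p = 0.403), -1.77 for Meg3 (SE 0.42, adjusted p = 0.305), -0.89 for Grb10 (SE 0.38), -0.70 for Ndn (SE 0.34) and 0.49 for Rian (SE 0.53). The old and young changes had the same sign for these 5 genes, and Peg3 and Plagl1 were positive in both ages. The sign differed for Dlk1, at 0.23 in old (SE 0.39) and -0.82 in young mice (SE 0.39). It also differed for Igf2, at 0.62 in old (SE 0.59) and -0.24 in young mice (SE 0.60). Over all genes tested 0.65% were called in old and 0.0626% in young mice by edgeR. An unadjusted p under 0.05 was had by 4 of the 9 and 21.2% of all genes in old mice, and by 3 of the 9 and 9.46% of all genes in young mice. DESeq2 called 2 of the 9 in each age, against 20.1% of all genes in old and 2.57% in young mice.

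The old-over-young change of Rian was 2.12 in KO mice (SE 0.53, adjusted p = 0.111, edgeR) and 0.89 in WT mice (SE 0.52, adjusted p = 0.439). That of Igf2r was -0.91 in KO (SE 0.36) and -1.09 in WT mice (SE 0.36). Over all genes tested 0.0861% were called in each genotype. An unadjusted p under 0.05 was had by 3 of the 9 and 24.4% of all genes in KO mice, and by 1 of the 9 and 13.9% of all genes in WT mice. DESeq2 called 2 of the 9 and 22% of all genes in KO mice, and 0 of the 9 and 1.86% of all genes in WT mice. The test of the difference itself, the genotype by age term, gave 1.23 for Rian (SE 0.73), 1.06 for Dlk1 (SE 0.55) and 0.90 for Meg3 (SE 0.58), each with an adjusted p of 1. None of the 9 passed it by edgeR or DESeq2, against 0.00391% and 0.0601% of all genes, and none had an unadjusted p under 0.05, against 1.98% of all genes.

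Other imprinted genes were read from a list of 60, of which 51 were tested. Between genotypes 2 of them rose, 8 fell and 41 did not pass, so 10 of 51 were called, against 9.98% of all genes, with a median log2 change of -0.08 against 0.10 over all genes tested. Cdkn1c, the inhibitor of the cell cycle that keeps blood stem cells quiescent, measured 31.2 and 32.3 TPM in old KO, 42.2 and 47.1 TPM in young KO, 80.1 and 107.3 TPM in old WT and 82.7 and 85.1 TPM in young WT libraries. All KO libraries lay below all WT libraries, and the log2 change of Cdkn1c was -1.03 (SE 0.19, adjusted p = 0.0167, edgeR). Kcnq1ot1, the noncoding RNA that silences the paternal Cdkn1c region, averaged 4.45 ± 2.39 TPM in KO and 1.91 ± 0.999 TPM in WT cells and rose by 1.35 (SE 0.20, adjusted p = 0.00888). Phlda2, a growth restrainer of the same region, averaged 28.1 ± 7.85 TPM in KO and 14.8 ± 2.78 TPM in WT cells and rose by 1.04 (SE 0.26, adjusted p = 0.0337).

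Of the other imprinted genes that fell, the adaptor Gab1 changed by -1.17 (SE 0.25, adjusted p = 0.0244, edgeR), Asb4 by -1.16 (SE 0.33, adjusted p = 0.0474) and Osbpl5 by -0.84 (SE 0.18, adjusted p = 0.0236). Mkrn3, Sgce, Peg13 and Trappc9 made up the rest. With litter as a block 1 gene rose and 3 fell (Kcnq1ot1, and Gab1, Cdkn1c and Osbpl5), and Phlda2 (adjusted p = 0.0564) and Asb4 (0.074) were among those lost. Leaving out 1 library left 1 to 14 of the 51 called, more than the 10 of the full fit only without young KO replicate 2 (13) or young WT replicate 2 (14), and 0 were left without the litter that stands apart. None passed with the noncoding share as a covariate and 1 fell without the batch term. DESeq2 called 6 higher and 13 lower, where it called 27.5% of all genes with an adjusted p. For fits without the batch term or with libraries left out, the share of all genes called was not counted. This holds for the lists and markers below as well. Cdkn1c was lost only without old KO replicate 2 (adjusted p = 0.0702) and Kcnq1ot1 only without old WT replicate 2 (0.06) among the 8 fits without 1 library. Over all 23 alternatives Cdkn1c kept its call in 18 and Kcnq1ot1 in 14. Kcnq1ot1 lost it, among others, with the length correction and with limma on log2(TPM + 1) or log2(TPM + 0.1).

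**Figure D5:**
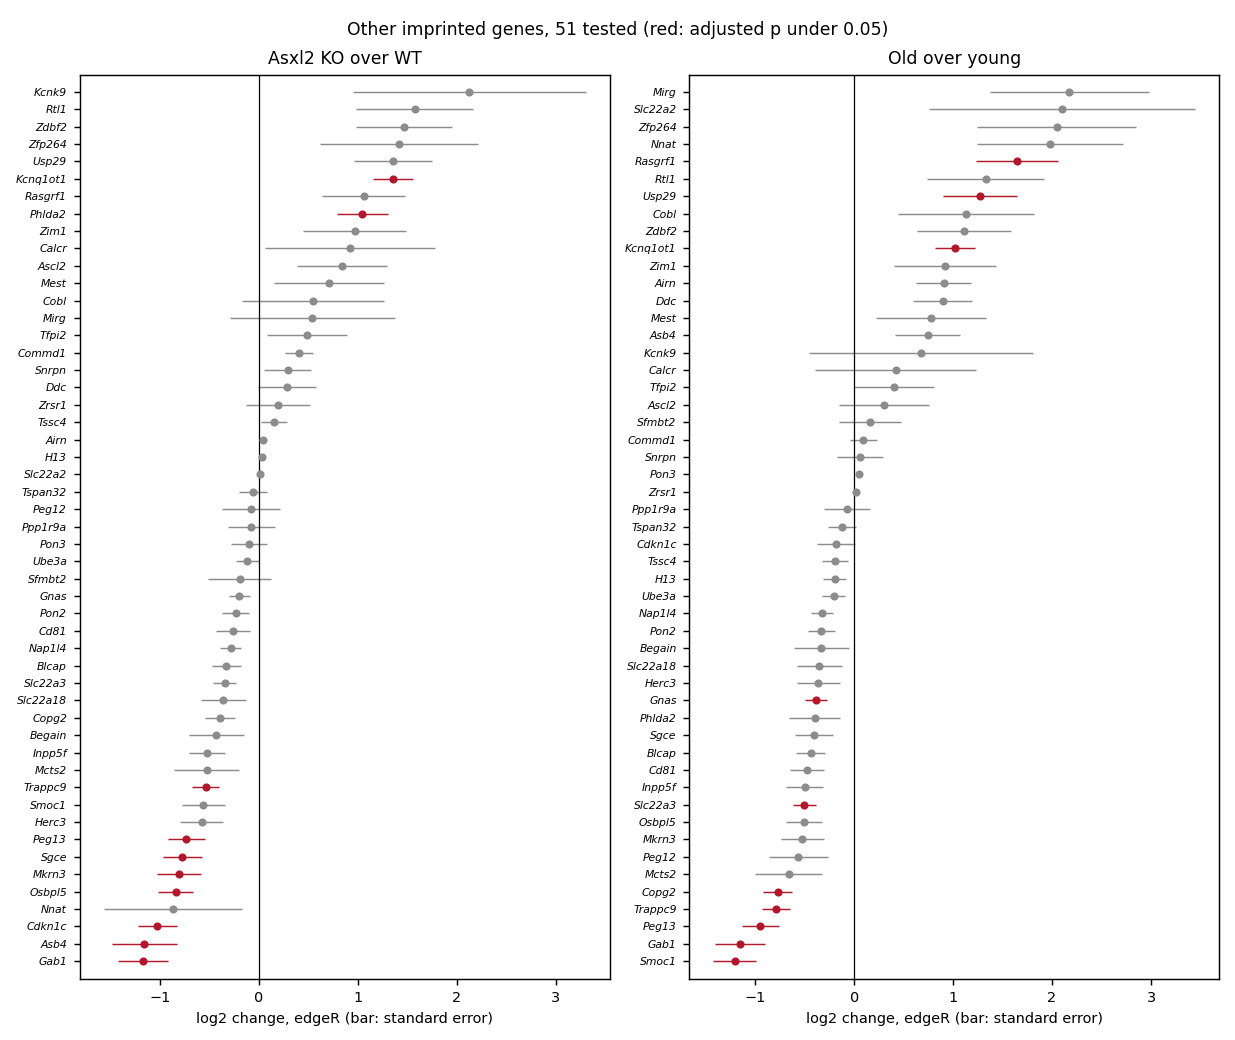
Log2 change of the 51 other imprinted genes tested (x axis, bars are standard errors, left out where the change was under 0.05 in size) for KO over WT (left) and old over young (right), each ordered by its change. Red points passed an adjusted p of 0.05 in edgeR's quasi-likelihood test, 10 in each panel.

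Between ages 3 of the 51 rose and 7 fell, against 4.34% and 9.61% of all genes, with a median log2 change of -0.12 against 0.15 over all genes tested. Rasgrf1, which activates Ras, averaged 1.18 ± 0.544 TPM in old and 0.317 ± 0.149 TPM in young cells and rose by 1.64 (SE 0.41, adjusted p = 0.0319, edgeR). Usp29, the neighbour of Peg3, rose by 1.27 (SE 0.37, adjusted p = 0.0451) and Kcnq1ot1 by 1.02 (SE 0.20, adjusted p = 0.0219). Kcnq1ot1 turned to -0.09 (adjusted p = 0.658) when a trend with transcript length was removed, and with the noncoding share as a covariate Rasgrf1 turned to -0.07, Usp29 to -0.28 and Kcnq1ot1 to -0.02, each with an adjusted p of 1. Smoc1 fell by 1.21 (SE 0.22, adjusted p = 0.0198), Gab1 by 1.15 (SE 0.25, adjusted p = 0.025) and Peg13 by 0.95 (SE 0.18, adjusted p = 0.0217), and Trappc9, Copg2, Slc22a3 and Gnas fell too. Airn, antisense to Igf2r, measured 7.84 ± 1.21 TPM in old and 4.39 ± 1.80 TPM in young cells and missed the threshold (log2 change 0.91, SE 0.28, adjusted p = 0.0508). Of the 51, 0 to 15 were called after leaving out 1 library, none of them without old KO replicate 1, old KO replicate 2, young KO replicate 2 or young WT replicate 1, and 0 without the litter that stands apart. On the log2(TPM + 1) or log2(TPM + 0.1) scale (limma) 0 passed, without the batch term 2 fell, and DESeq2 called 7 higher and 12 lower. The share of all genes that DESeq2 called between ages was not counted, so its counts between ages cannot be set against it, here or below.

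Genes of insulin-like growth factor and PI3K signalling, the pathway that Igf2, Igf2r and Grb10 act on, were 38 of 40 tested. Between genotypes 0 rose, 8 fell and 30 did not pass, where 6.78% of all genes fell, with a median log2 change of -0.41 against 0.10 over all genes tested. None passed without the batch term or with the length correction. DESeq2 called 1 higher and 14 lower, where it called 27.5% of all genes with an adjusted p. The receptor Igf1r averaged 3.16 ± 0.834 TPM in KO and 3.48 ± 0.776 TPM in WT cells, a log2 change of -0.08 (SE 0.18). The receptor adaptor Irs2 averaged 3.69 ± 0.723 TPM in KO and 6.70 ± 0.692 TPM in WT cells and fell by 0.72 (SE 0.17, adjusted p = 0.0316, edgeR). Foxo1, a transcription factor that Akt kinases hold out of the nucleus, fell by 0.74 (SE 0.15, adjusted p = 0.0221), and the kinase Akt2 by 0.62 (SE 0.13, adjusted p = 0.0219). The lipid kinase subunits Pik3cb (0.78 lower) and Pik3r2 (0.64 lower) and the adaptor Shc1 (0.60 lower) were among the others. With litter as a block 4 stayed lower (Foxo1, Akt2, Pik3r2 and Shc1), while Irs2 (adjusted p = 0.0547) and Pik3cb (0.0624) were lost. Without any 1 library 0 or 1 of the 38 were called, except without young KO replicate 2 (10) or young WT replicate 2 (17). Between ages 0 rose and 9 fell, where 9.61% of all genes fell, with a median of -0.33, among them Tsc2 (0.89 lower), Rptor (0.79 lower), Inpp5d (0.74 lower), Pik3cd (0.74 lower), Foxo3 (0.63 lower) and Shc1 (0.62 lower). On the log2(TPM + 1) or log2(TPM + 0.1) scale and without the batch term 0 of the 38 passed between ages, and DESeq2 called 1 higher and 13 lower.

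Genes that set or keep imprints were 28 of 29 tested. Between genotypes 0 rose and 2 of the 28 fell, where 6.78% of all genes fell, with a median log2 change of -0.17. None passed without the batch term, and DESeq2 called 6 lower, where it called 27.5% of all genes with an adjusted p. Zfp57, the zinc finger protein that protects methylated imprints in the embryo, averaged 0.72 ± 0.156 TPM in KO and 2.43 ± 0.59 TPM in WT cells, with all KO libraries below all WT libraries. Its log2 change was -1.50 (SE 0.33, adjusted p = 0.0247, edgeR). Kdm1b, the demethylase needed for imprints in the egg, fell by 0.73 (SE 0.18, adjusted p = 0.033). With litter as a block Zfp57 passed (adjusted p = 0.0451) and Kdm1b did not (0.0612). Neither passed after leaving out any 1 library other than young KO replicate 2 or young WT replicate 2. Between ages 0 rose and 8 fell, where 13.9% of all genes were called and 9.61% fell, with a median of -0.27, among them the DNA methyltransferase Dnmt3b (0.76 lower), Setdb1 (0.75 lower), Zfp445 (0.75 lower), Trim28 (0.72 lower), Uhrf1 (0.71 lower) and Ehmt2 (0.63 lower). With limma on either log2(TPM) scale and without the batch term 0 of the 28 passed between ages, and DESeq2 called 11 lower. None of the genes of these last 2 lists was called between ages without old KO replicate 1, young KO replicate 2 or young WT replicate 1, and none in either comparison without the litter that stands apart.

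Markers of other cells moved with the same comparisons. Over all genes tested 6.78% fell and 3.19% rose between genotypes, and 9.61% fell and 4.34% rose between ages. Of the LSK markers, 2 of 12 rose (Ly6a and Slamf1) and 6 fell between genotypes, Kit among them at 113.9 ± 46.1 TPM in KO and 261.3 ± 194.3 TPM in WT cells. With litter as a block 0 rose and 2 fell, and Ly6a (adjusted p = 0.0574), Slamf1 (0.0705) and Kit (0.0725) were lost. Leaving out 1 library left 1 to 9 of the 12 called. The 16 stroma and endothelium markers summed to 29.4 to 33.5 TPM in KO and 60.2 to 72.8 TPM in WT libraries, and 4 of the 14 tested fell (Col1a2, Emcn, Pdgfrb and Bgn), 3 with the block and 1 to 5 without 1 library. Of those 16, 7 were under 1 TPM in every library, the defining Cdh5, Kdr, Pdgfra and Dcn among them, and none was at 0 in all.

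Erythroid markers summed to 119 to 633 TPM in KO and 298 to 1336 TPM in WT libraries, and 9 of 12 fell. That count was 4 with litter as a block, 1 without the batch term, and 1 to 8 after leaving out 1 library, lowest without old WT replicate 2 (1), old KO replicate 2 (3) or young WT replicate 1 (3). Mast cell and basophil markers fell in 5 of 8, at 39.7 to 161 TPM in KO and 62.2 to 155 TPM in WT libraries. All 5 passed with the block, 2 passed without the batch term, and 0 without old WT replicate 2, against 3 to 5 without any other library. T and NK cell markers summed to 563 to 809 TPM in KO and 301 to 419 TPM in WT libraries, with 1 of 8 higher (Nkg7) and Cd3e under 1 TPM throughout. The median log2 change of these 8 markers was 0.04, against 0.10 over all genes tested. Of the neutrophil and B cell markers none passed between genotypes. Of 8 macrophage, monocyte and dendritic cell markers 1 (Cd68) rose, and of 8 megakaryocyte markers 1 (Gp1bb), which was lost without old KO replicate 2 or old WT replicate 2.

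Between ages 6 LSK, 7 erythroid, 1 neutrophil, 1 B cell and 1 T and NK cell markers fell, and 2 stroma and endothelium markers (Kdr and Sparc), 1 mast cell and basophil marker and 1 megakaryocyte marker rose. These counts changed when 1 library was left out. For the LSK markers 1 fell without old KO replicate 1, old KO replicate 2, young KO replicate 2, old WT replicate 1 or young WT replicate 1, and 0 without the litter that stands apart. For the erythroid markers 0 fell without young KO replicate 2, 1 without young WT replicate 1 and 1 without that litter. On the log2(TPM + 1) scale (limma) no marker passed between ages, and Kdr turned to -0.66 with the noncoding share as a covariate. The part of these cells in the changes of Igf2r, Meg3 and Grb10 was not tested.

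The genes whose log2(TPM + 1) ran most like each of the 7 better measured genes over the 8 libraries were read from 9830 genes. For Igf2r they were Morn1 (Pearson's r 0.98), Mboat1 and Frmd4b, for Meg3 Arhgap29 (0.99), Adgrl2 and Asph, and for Grb10 Uba7 (0.97), Spopl and Tax1bp1. Ndn ran most like Procr (0.95), Vegfc and Tinagl1, and Dlk1 like Ampd3 (0.97), Tspan2 and Ubfd1. Rian ran most like Ovgp1 (0.97), Bhlhe41 and Gm10203, and Igf2 like Gnaq (0.92), Pot1b and Pus1. These values describe 8 libraries that share 2 genotypes, 2 ages and 2 batches, and were not tested.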

How the data were processed

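The LSK cells of 8 mice gave polyA RNA libraries made with a SMART-Seq v4 kit, per the labels' protocols. That kit does not mark strand. The authors deposited, per the file headers, kallisto estimated counts, TPM and effective lengths in bases for 115088 transcripts in each library, and the submitters' processing notes name kallisto, DESeq2 and mm10 without versions.

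Here 114200 transcripts were matched by identifier to 47311 genes of GENCODE vM21, and the 888 left over, with 0.259% to 0.47% of the counts, were left out. The estimated counts of a gene were added up and rounded. Genes were kept at 10 or more counts in enough libraries and 15 in all (25543), scaled by TMM and tested with edgeR 4.0.16 (quasi-likelihood, Benjamini-Hochberg over all genes, threshold 0.05). The model was genotype + age + batch (common dispersion 0.134, 4 residual degrees of freedom), or the 4 groups + batch (0.141, 3) within an age or genotype and for the interaction. Counts were simulated with 1 dispersion (0.134) for all genes, no batch or litter effect, and 100 genes changed by each size. In these counts the model recovered 14% of genes changed by 1 and 93% of genes changed by 2 on the log2 scale between genotypes. Between ages it recovered 11% and 88%. The data differ in these settings, so these shares do not state the power of the fits above. TPM are levels, as mean ± SD.

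The mice of a litter share age and batch per the labels, so litter pairs KO with WT. Replicates are single mice, numbered in accession order. The named genes are the 10 imprinted genes, Asxl2, their transcripts with at least 10% of a gene's TPM, and from each list the genes past the threshold, up to 6 per comparison with the largest change in full. The genes and lists were chosen with earlier results of these data known. Alternatives were limma 3.58.1 on log2(TPM + 1) or log2(TPM + 0.1), DESeq2 1.42.0, other scalings, filters and length corrections, single batches, litter, and libraries left out. A fit within 1 batch held 1 mouse of each group, so its calls, and a lack of them, carry little weight. RefSeq promoters, GENCODE transcripts and their shared 31-base words were read in Python 3.11.15. Intervals and limits for a count of 0 cover counting error only.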

Additional observations from a re-analysis of the deposited data

Results flagged for a closer look

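Of 40 sets of 4 libraries (each gene in KO, WT, old and young libraries), 4 held a library far from the others by Dixon's test. That test flags about 1 in 20 independent sets of normal values. These sets share libraries and mix ages or genotypes, so the 4 cannot be set against that rate. H19 stood at 0.342 TPM in young WT replicate 1, with the other WT libraries between 0.0343 and 0.0817 TPM. Grb10 stood at 16.9 TPM in young WT replicate 1, with the other young libraries between 4.16 and 6.13 TPM. Dlk1 stood at 1.91 TPM in old KO replicate 1, with the other old libraries between 2.72 and 2.86 TPM. Peg3 stood at 0.174 TPM in young KO replicate 2, with the other young libraries between 0.157 and 0.158 TPM.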

How the results depend on the processing

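The count of genes called depended on the processing. It is out of 9, or out of 10 in the fits without the filter, which also held H19. For most settings the share of all genes called was not counted, so these counts cannot be set against it there. KO over WT, with 3 in the full fit (9.98% of all genes), gave 1 without the batch term and 5 with DESeq2 (27.5% of all genes). It gave 5 without the filter on low counts and 0 with log2(TPM + 1) and no filter. It gave 0 without the litter that stands apart and 0 with the noncoding share as a covariate (chosen after the data were seen). Old over young, with 2 in the full fit (13.9% of all genes), gave 0 without the batch term, without that litter and with the noncoding share. It gave 0 with log2(TPM + 1), log2(TPM + 0.1) or log2(TPM + 1) and no filter, and 1 with the length correction or length-scaled TPM. Comparisons with 0 in the full fit gave, for DESeq2 and for no filter, 2 and 4 (KO over WT, old), 2 and 1 (KO over WT, young) and 2 and 2 (old over young, KO), and 1 without a filter (old over young, WT). Fitting KO libraries alone gave 1 for old over young. Leaving out 1 library gave 0 to 4 (KO over WT), 0 to 3 (KO over WT in old), 0 to 3 (KO over WT in young), 0 to 3 (old over young), 0 to 1 (in KO) and 0 to 1 (in WT). The cause was not tested.

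With litter as a replicate block 2 of the 9 were called between genotypes, since Grb10 was lost (adjusted p = 0.0766), and no other call of the 9 genes changed; 1162 of all genes were called with the block and 2548 without it. Over all settings 638 of the recomputed values kept their sign and side of the threshold, 40 passed newly, 64 no longer passed and 19 turned sign.

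None of these 19 values, all of the 9 genes, had passed; the called genes of other lists that turned are given beside their values. Igf2 between genotypes turned to -0.15 (length correction), -0.074 (first batch), -0.14 (without that litter) and -0.90 (noncoding share), and between ages to -0.072 (length correction), -0.028 (second batch), -0.036 (without that litter) and -1.41 (noncoding share). Leaving out 1 library, Igf2 ran from -0.15 to 0.49 between genotypes and -0.022 to 0.54 between ages, and Rian between genotypes in young mice from -0.11 to 1.29. With the noncoding share, old over young turned to -0.13 for Meg3, 0.11 for Ndn and 0.33 for Peg3. Grb10 between ages turned to 0.082 (log2(TPM + 1), with or without the filter), 0.10 (log2(TPM + 0.1)) and 0.027 (length-scaled TPM). Few counts limited H19, Plagl1 and Peg3.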
